A study of Homo sapiens with 6 samples.

Results

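Centromere and kinetochore genes were examined in SaOS-2 cells, a human osteosarcoma line that lacks RB and p53, after induction of p21 (CDKN1A). The members are 36 genes chosen by symbol, which cover the CENP-A nucleosome and its loading factors, the inner kinetochore, the outer kinetochore and the fibrous corona, and all 36 were found among the 23228 gene rows of the deposited table. Older symbols are used as in the table, so that CASC5 stands for KNL1, MLF1IP for CENPU, CENPC1 for CENPC and ITGB3BP for CENP-R. The libraries came from cells that carry a Tet-inducible p21 vector, with 3 untreated libraries (p21 OFF) and 3 after 24 h of doxycycline at 1 μg/ml (p21 ON). Both groups carried the vector. Doxycycline without the vector was not analysed here, and the effects of drug and p21 therefore cannot be told apart. Whether replicates came from separate cultures is not stated in the labels, and p-values then measure only the spread between these libraries.

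The kinetochore is the protein assembly that attaches each centromere to spindle microtubules in mitosis. Nucleosomes with the histone H3 variant CENP-A mark the centromere, a group of inner proteins binds them throughout the cell cycle, and the outer KNL1, Mis12 and Ndc80 complexes are built on this base for mitosis and hold the microtubule. Many of these genes are transcribed late in the cell cycle under the DREAM and MMB-FOXM1 complexes, which contact promoters through an element named CHR, and p21 favors the repressive DREAM complex by inhibiting cyclin-dependent kinases.

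The p21 OFF libraries held 12795490 to 21975045 reads assigned to genes, and 12918390 to 16630552 were counted with p21 ON. CDKN1A rose from 1266 ± 84.5 to 43691 ± 3138 normalized counts (SD, n = 3 each), with every p21 ON library above every p21 OFF library. Of 8 osteoblast markers, ALPL, RUNX2, SP7 and COL1A1 were at 3028 or more in every library, IBSP was at 123 to 139 with p21 OFF and 95.5 to 102 with p21 ON, and SPP1, BGLAP and COL1A2 stayed under 10. The summed level of the osteoblast list was 51356 to 53778 with p21 OFF and 52247 to 56419 with p21 ON. The 4 blood markers summed to at most 10.5 in any library, the 4 epithelial markers to 317 to 398, most of it EPCAM, and the 4 endothelial markers to 63.6 to 69.1 with p21 OFF and 73.1 to 105 with p21 ON, most of it VWF. The part of IBSP and the endothelial markers in the results was not tested. Of the principal components of expression, the first (54.2% of variance) separated the groups, the second (15.04%) set p21 ON replicate 2 apart and the third (14.4%) p21 OFF replicate 1. In p21 OFF replicate 1, genes with a transcript of 1 kb lay 0.20 above their mean over all libraries on the log2 scale and genes with one of 8 kb lay 0.17 below it, while in the p21 ON libraries the 1 kb genes lay 0.048 to 0.13 below. Values that bear on this are given beside the results it touches.

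Centromere and kinetochore genes were mostly lower after p21 induction, and the level that remained ran from 33.3% of the p21 OFF level for SKA1 to 100.8% for KNTC1. By limma on log2(normalized count + 1), with Benjamini-Hochberg adjustment over the 13255 genes whose mean reached 10 normalized counts and a threshold of 0.05, 31 of the 36 members were lower in p21 ON cells, against 12.7% of all genes tested. None of the 36 was called higher, where 10.5% of all genes were. At an unadjusted p under 0.05 limma gave 0 higher and 33 lower, and the share of all genes at that threshold is not given here. On reads recovered from the normalized counts, edgeR (quasi-likelihood) called 31 members lower and 0 higher, against 12.4% and 10.6% of all genes, and DESeq2 called 30 lower and 0 higher, against 11.6% and 8%. The 5 members without a call were CENPB, CENPT, MIS12, NSL1 and KNTC1. The median log2 fold change of the 36 was -0.91, that is 53.2% of the p21 OFF level, with an interquartile range from -1.36 to -0.42, and the median of all genes tested was 0.0056. A fall of at least 1 on the log2 scale with an adjusted p-value under 0.05 was found for 16 members, against 1.15% of all genes. Every p21 ON library lay below every p21 OFF library for 32 members, against 21.3% of all genes tested. Without p21 OFF replicate 1, 31 members were called lower with a median of -0.86, without p21 ON replicate 2 also 31 with a median of -0.96, and with a trend on transcript length taken out of each library 33 were. Of all genes, 12.2%, 11% and 13% were called lower in these fits, in the same order. The share of all genes called lower was 6.72% without p21 ON replicate 1, 8.13% without p21 ON replicate 3 and 9.01% under scaling by library size alone, where 15.3% were called higher, and 30, 30 and 31 members were lower in these fits. Reads on the 36 genes made up 0.200 to 0.210% of all reads in p21 OFF libraries and 0.128 to 0.132% in p21 ON libraries. In bulk RNA, fewer cells in G2 and mitosis and less of each transcript per cell cannot be told apart.

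**Figure D1:**
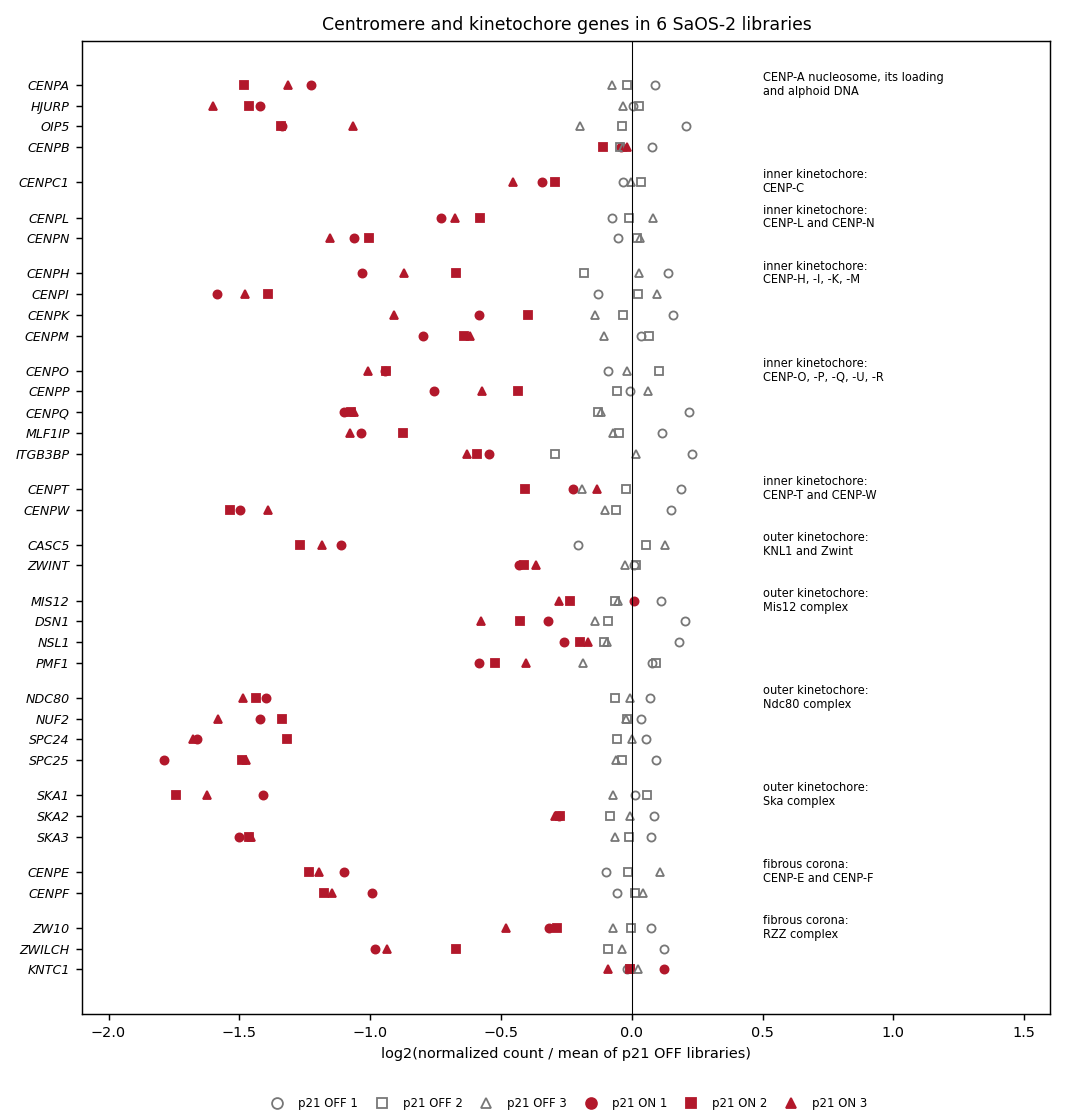
Normalized count of each of the 36 members in each library, on a log2 scale relative to the mean of the 3 p21 OFF libraries (x axis), with genes in rows grouped by their place in the centromere or kinetochore. Open grey symbols are p21 OFF libraries and filled red symbols p21 ON libraries, with 1 symbol shape per replicate number. The p21 ON symbols lie left of all p21 OFF symbols for 32 genes and overlap them for CENPB, CENPT, MIS12 and KNTC1.

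Promoter windows, from 250 bases before to 50 bases after the gene start, were found in the RefSeq table (GRCh38.p14) for 31 of the 36 members, and CENPL, CENPH, CENPM, CASC5 and KNTC1 had no entry. The start in this search is that of the RefSeq window. It can differ from the ends of the GENCODE spans printed for members below. The windows were searched on both strands for the CHR letters TTTGAA and TTCGAA, the second of which reads the same on both strands. They were present for 15 of the 31 members (48.4%), against 15.8% of the 10279 tested genes with a window and 19.5% of all 27305 genes in the promoter table. Within 100 bases before to 50 after the start, 13 members held them (41.9%), against 6.81% of tested genes. All 15 members with CHR letters were called lower (median log2 fold change -1.34), as were 12 of the 16 without them (median -0.57). Of the 1629 tested genes with the letters in the whole window, 325 were called lower and the median was -0.021. In the narrower window, all 13 members and 29.3% of the 700 tested genes with the letters were called lower. The letters of E2F sites, TTCCCGC, TTTCCCGC (which contains the first), TTTGGCGC and TTTCGCGC, were present for 9 of the 31 members (29.0%) against 14.8% of tested genes, and 7 of these 9 members were called lower, as were 15.8% of the 1522 tested genes with these letters. The median log2 fold change was -1.07 for members with E2F letters and -0.91 for the 22 without, of which 20 were called lower. In the narrower window 6 members held E2F letters (19.4%), against 7.93% of tested genes. Of these 6, 4 were called lower, as were 18.8% of tested genes with the letters. A match is only a run of letters, and binding was not measured here.

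The following stretches are shown because they hold CHR letters from 100 bases before to 50 after the start of a member whose log2 fold change was -1 or below. Each has 30 bases, is written 5′ to 3′ on the strand of the gene and has the CHR letters on either strand in capitals.
CENPA, chr2:26786026-26786055, plus strand: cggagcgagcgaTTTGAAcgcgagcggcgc
OIP5, chr15:41332573-41332602, minus strand: gcctggcgtgtaTTCGAAaggaaggcgccg
CENPN, chr16:81007205-81007234, plus strand: gcaattggtggcTTTGAAggcgcggcgagc
CENPW, chr6:126340120-126340149, plus strand: gttggcggcggaTTCGAAcgttcggactga
NDC80, chr18:2571548-2571577, plus strand: gagaatTTCAAATTCGAAcggctttggcgg
NUF2, chr1:163321958-163321987, plus strand: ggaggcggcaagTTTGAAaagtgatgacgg
SPC25, chr2:168890416-168890445, minus strand: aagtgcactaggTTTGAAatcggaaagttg
SKA1, chr18:50375066-50375095, plus strand: ggcgcggcgggcggTTTGAAttttgcttac
SKA3, chr13:21176538-21176567, minus strand: ccggcgccgagaTTCAAActagtggcggga
CENPF, chr1:214603215-214603244, plus strand: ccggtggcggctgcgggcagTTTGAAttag
In these 10 stretches the letters begin between 18 bases before the start (CENPA) and base 41 after it (CENPF), counted with the start as base 1. SPC25 holds them a second time in its window, 247 bases before the start. NDC80 holds a pair of matches side by side, and SKA3 holds the letters on the opposite strand alone. Strong falls were also seen without the letters in the window, as for SPC24, CENPI and CENPE.

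**Figure D2:**
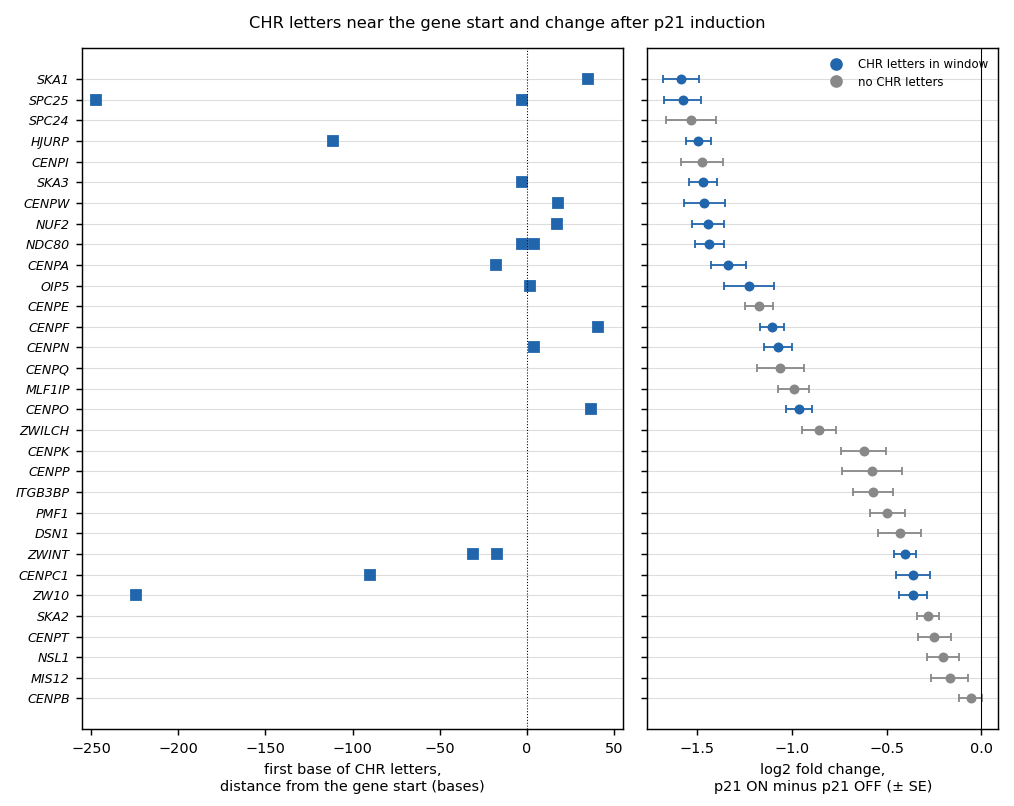
Left, distance in bases from the gene start to the first base of each run of CHR letters (squares) in the promoter windows of the 31 members that have one, ordered by their change. Right, the log2 fold change of the same members (circles, with SE), blue with the letters and grey without. Most of the squares at the top of the order lie close to the start, and the rows without squares run from -1.53 (SPC24) to -0.055 (CENPB).

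Genes that build the CENP-A nucleosome fell. CENPA (chromosome 2 of GRCh37, 26987157 to 27023935), the centromeric histone, had 519, 481 and 462 normalized counts with p21 OFF and 208, 174 and 196 with p21 ON. The groups were well apart, with a log2 fold change of -1.34 (SE 0.092, adjusted p = 4.02e-09). CENPA shares 138 exonic bases with SLC35F6 on the same strand. HJURP (chromosome 2, 234742062 to 234763212), the chaperone that delivers new CENP-A to the centromere, went from 1888, 1918 and 1839.8 to 702, 682 and 621. Its p21 ON level was 35.5% of the p21 OFF level (log2 fold change -1.49, SE 0.067, adjusted p = 2.53e-11). OIP5, also named Mis18β, a subunit of the Mis18 complex that prepares centromeres for CENP-A, fell by 1.23 on the log2 scale, and its log2 fold change was -1.09 with the length trend taken out. Its exons overlap 759 bases of OIP5-AS1 and 352 bases of NUSAP1 on the opposite strand, and the strand setting of the counting is not given in the sources used here. CENPB, which binds a box in alphoid satellite DNA, had 2337, 2147 and 2164 normalized counts with p21 OFF and 2156, 2051 and 2188 with p21 ON. These ranges overlap, and the log2 fold change of -0.055 had a 95% interval from -0.18 to 0.073 (adjusted p = 0.543).

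Inner kinetochore genes, which encode proteins of the constitutive centromere-associated network, were lower for 13 of 14 members, against 12.7% of all genes tested. Their median log2 fold change was -0.76. The genes of CENP-S and CENP-X are not among these 14, and neither was called. Of the 14 members, CENPI and CENPW fell most. CENPI and CENPW fell most. CENPI (chromosome X, 100353177 to 100421115) had 239.9, 266 and 280.1 normalized counts with p21 OFF and 87.3, 99.9 and 94.1 with p21 ON, a log2 fold change of -1.47 (SE 0.11, adjusted p = 1.16e-08). The other proteins of its subcomplex, CENPH, CENPK and CENPM, changed by -0.85, -0.62 and -0.68. CENPW (chromosome 6, 126661261 to 126670021), a small histone-fold protein, had 318, 274 and 267 with p21 OFF and 101, 98.7 and 109 with p21 ON, so that 36.0% remained (log2 fold change -1.46, SE 0.11, adjusted p = 9.74e-09). Its transcript is the shortest of the members, with 809 bases, and its log2 fold change was -1.27 with the length trend taken out. CENPT, the histone-fold partner of CENP-W that also recruits the Ndc80 complex, had 1483, 1281 and 1139.8 with p21 OFF and 1113, 979.6 and 1187 with p21 ON. The p21 OFF and p21 ON ranges of CENPT overlap, and its log2 fold change of -0.25 was just short of the threshold (SE 0.089, adjusted p = 0.0520). CENPT was called lower under TMM scaling, with the length trend taken out and without p21 OFF replicate 3, with adjusted p-values of 0.0476, 0.0442 and 0.00704, and its value without p21 OFF replicate 1 was -0.15. It overlaps exons of TSNAXIP1, THAP11 and NUTF2 on the opposite strand.

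CENPN, which reads the CENP-A nucleosome together with its partner CENP-L, fell by 1.07 on the log2 scale, from 790.3 ± 24.5 to 376 ± 19.2 normalized counts (SD, n = 3 each). CENPL fell less, by 0.66. Of the CENPN exons, 716 bases overlap a lncRNA on the same strand. In the group of CENP-O, CENP-P, CENP-Q, CENP-U and CENP-R, all 5 genes were lower. CENPQ and MLF1IP, whose proteins bind each other, changed by -1.06 and -0.99, and CENPO by -0.96. CENPO overlaps 1488 exonic bases of ADCY3 on the opposite strand. CENPP and ITGB3BP changed by -0.58 and -0.57. CENPP was weakly expressed, at 70.3, 68.0 and 73.9 normalized counts with p21 OFF and 41.9, 52.4 and 47.5 with p21 ON (36 to 100 reads per library). Its call (adjusted p = 0.0139) was lost with DESeq2 (adjusted p = 0.0664) and without p21 ON replicate 1 (adjusted p = 0.0704), and 3720 bases of its exons overlap IPPK on the opposite strand. ITGB3BP, with a transcript of 961 bases, was spread from 373 to 536 within the p21 OFF libraries, and its log2 fold change was -0.45 without p21 OFF replicate 1. CENPC1, the scaffold that links CENP-A to the Mis12 complex, changed by -0.36 (adjusted p = 0.00811), the smallest change of the inner genes that were called.

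Among the outer kinetochore genes those of the Ndc80 complex, the 4-subunit rod that grips microtubules, had the lowest median log2 fold change, -1.49, close to the -1.47 of the Ska complex. NDC80 (chromosome 18, 2571556 to 2616634), the subunit with the microtubule-binding head, had 759.8, 694 and 721 normalized counts with p21 OFF and 275, 268 and 258 with p21 ON. NUF2 (chromosome 1, 163236366 to 163325554), its coiled-coil partner, had 719.6, 694 and 692 against 262, 278 and 235. SPC24 (chromosome 19, 11242196 to 11266483) and SPC25 (chromosome 2, 169690642 to 169769881) form the other end of the rod, which docks on the inner kinetochore. SPC24 had 179.6, 166 and 173 with p21 OFF and 54.7, 69.5 and 54.2 with p21 ON. For SPC25 the values were 519, 474 and 466 against 141, 173 and 175. All 4 genes were thus well below every p21 OFF library, with log2 fold changes of -1.44 (SE 0.077, adjusted p = 1.64e-10) for NDC80, -1.44 (SE 0.083, adjusted p = 3.04e-10) for NUF2, -1.53 (SE 0.13, adjusted p = 9.89e-08) for SPC24 and -1.58 (SE 0.099, adjusted p = 1.14e-09) for SPC25.

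The Mis12 complex, which joins the Ndc80 rod to the inner kinetochore, had the median nearest zero of the outer complexes, -0.32. PMF1 and DSN1 fell by 0.50 and 0.43 on the log2 scale, and MIS12 and NSL1 had log2 fold changes of -0.17 and -0.20 without a call. MIS12 had 328, 289.8 and 292 normalized counts with p21 OFF and 305, 257 and 249.9 with p21 ON, ranges that overlap (95% interval of the log2 fold change from -0.37 to 0.039, adjusted p = 0.229). NSL1 did not overlap between the groups (adjusted p = 0.0881). It was called with the length trend taken out, at -0.41, where its annotated canonical transcript of 13115 bases is the longest of the members. DSN1 was not called without p21 ON replicate 3 (adjusted p = 0.0680), and PMF1 shares 587 exonic bases with the PMF1-BGLAP readthrough gene on the same strand. CASC5 (chromosome 15, 40886218 to 40956540), the KNL1 scaffold for checkpoint proteins, had 1019, 1219 and 1282 with p21 OFF and 544, 487 and 516 with p21 ON, a log2 fold change of -1.18 (SE 0.084, adjusted p = 5.79e-09). ZWINT, the KNL1-binding protein, was among the most abundant members and fell by 0.40, from 2361 ± 38.4 to 1786 ± 39.8 normalized counts (SD, n = 3 each).

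The Ska complex, which tracks microtubule ends with Ndc80, had strong falls of SKA1 and SKA3 and a small one of SKA2. SKA1 (chromosome 18, 47901410 to 47920538) had 579, 598 and 547 normalized counts with p21 OFF and 217, 172 and 186 with p21 ON. Its log2 fold change of -1.59 (SE 0.094, adjusted p = 4.86e-10) was the lowest of the 36, though SPC25, SPC24 and HJURP lay within 0.1 of it. SKA3 had 865, 816 and 788 against 291, 299 and 300.3, and its log2 fold change was -1.47 (SE 0.075, adjusted p = 8.38e-11). SKA2 had 4907, 4360.3 and 4608 against 3810.3, 3822 and 3776. All p21 ON values of SKA2 were below all p21 OFF values, yet 82.2% of the level remained (log2 fold change -0.28, SE 0.060, adjusted p = 0.00282).

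In the fibrous corona, the outermost layer of the unattached kinetochore, CENPE and CENPF fell and the RZZ complex was uneven. CENPE (chromosome 4, 104026506 to 104119602), a plus-end directed kinesin, had 1331, 1411 and 1534 normalized counts with p21 OFF and 665, 606 and 622 with p21 ON (log2 fold change -1.17, SE 0.071, adjusted p = 6.96e-10). CENPF (chromosome 1, 214776528 to 214837917), a large coiled-coil protein, had 4151, 4352 and 4450.5 against 2169, 1909 and 1952 (log2 fold change -1.10, SE 0.063, adjusted p = 3.04e-10). The p21 ON levels were 44.3% and 46.6% of the p21 OFF levels. The RZZ complex of ROD, Zwilch and ZW10 recruits dynein and the checkpoint proteins MAD1 and MAD2 to the kinetochore. ZWILCH fell from 767, 662 and 687 to 357, 442 and 369, with a log2 fold change of -0.86 (SE 0.090, adjusted p = 1.42e-06). ZW10 went from 875, 831 and 792 to 668, 684 and 597, a log2 fold change of -0.36 (SE 0.075, adjusted p = 0.00234). KNTC1 (chromosome 12, 123011793 to 123110943), the gene of ROD, had 882, 888 and 908 with p21 OFF and 972, 888 and 838 with p21 ON. The groups overlap, and its log2 fold change of 0.0083 had a 95% interval from -0.14 to 0.16 (adjusted p = 0.947). The sign of KNTC1 changed without p21 OFF replicate 1, without p21 ON replicate 1, under TMM scaling and with the length trend taken out, always without a call. ZWILCH overlaps exons of RPL4 and LCTL on the opposite strand.

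Whether partners within a complex changed by the same factor was asked with the log2 ratio of their normalized counts (each plus 1) within each library, for 14 pairs. In 7 pairs the p21 ON and p21 OFF ratios overlapped. The ratio of NDC80 to NUF2 was 0.078, 0.00 and 0.059 with p21 OFF and 0.069, -0.051 and 0.14 with p21 ON, which differ by 0.0062 (two-sided exact permutation p = 0.9). The differences for MIS12 to PMF1 (0.33), SPC24 to SPC25 (0.043), CENPQ to MLF1IP (-0.069), SKA1 to SKA3 (-0.12), CENPA to HJURP (0.16) and CENPH to CENPK (-0.23) were also within the overlap of the groups. Among the 14 pairs, the largest shift was that of CENPT to CENPW, which went from 2.22, 2.22 and 2.09 to 3.44, 3.30 and 3.43, a difference of 1.21. SKA2 was in none of the pairs, and its log2 fold change was -0.28 beside -1.59 for SKA1 and -1.47 for SKA3. The ratios of KNTC1 to ZWILCH and CENPL to CENPN differed by 0.87 and 0.42. Those of CENPI to CENPM, CASC5 to ZWINT, CENPO to CENPP and DSN1 to NSL1 differed by -0.79, -0.78, -0.38 and -0.23. These 7 pairs did not overlap between the groups, at an exact two-sided permutation p = 0.1, the smallest that 3 libraries against 3 allow. This p is 0.2 after Benjamini-Hochberg adjustment over the 14 pairs, so none passed a threshold of 0.05. The share without overlap over other pairs of genes was not computed. Among single genes tested, every p21 ON library lay below every p21 OFF library for 21.3% and above for 19.1%.

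**Figure D3:**
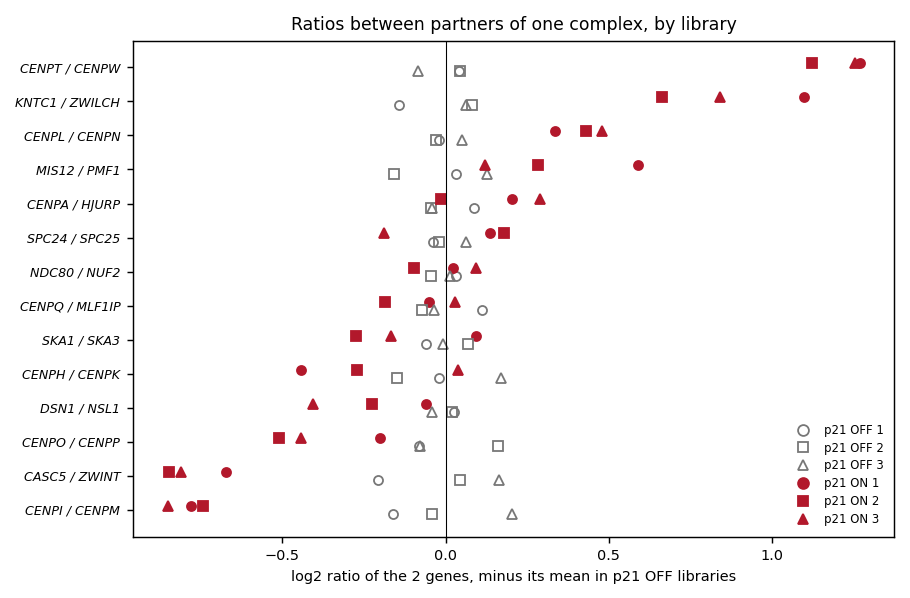
Log2 ratio of the normalized counts of both genes of a pair in each library, after subtraction of the mean ratio of the p21 OFF libraries (x axis), for 14 pairs of partners ordered by their difference. Open grey symbols are p21 OFF and filled red symbols p21 ON libraries. The red symbols of CENPT to CENPW lie about 1.21 to the right of zero and those of NDC80 to NUF2 around zero.

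Cell cycle classes were taken from the low-stringency lists of G1/S and G2/M genes supplied with the study, which were set on other data sets. Of the 36 members, 14 are in the G2/M list, 9 in the G1/S list and 13 in neither. All 14 G2/M members were lower with p21 ON. Their log2 fold changes had a median of -1.28 and ran from -1.59 (SKA1) to -0.66 (CENPL). Among the 9 G1/S members, CENPH, CENPK, CENPM, CENPQ, MLF1IP, DSN1 and ZWINT were lower and MIS12 and KNTC1 were not called, and the median was -0.62. The other 528 tested genes of the G1/S list had a median of 0.0059, with 110 lower and 89 higher, and the other 403 of the G2/M list a median of -0.30, with 233 lower and 5 higher. The difference between the medians of the G2/M and the G1/S members was -0.66, and it ranged from -0.85 to -0.52 with each library left out in turn. Members are not replicates, so this difference was not tested. The 13 members in neither list were spread from SPC24 (-1.53) to CENPB (-0.055), with 10 lower. SPC24, CENPI, SKA3 and CENPN were the 4 of them with a fall of at least 1.

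**Figure D4:**
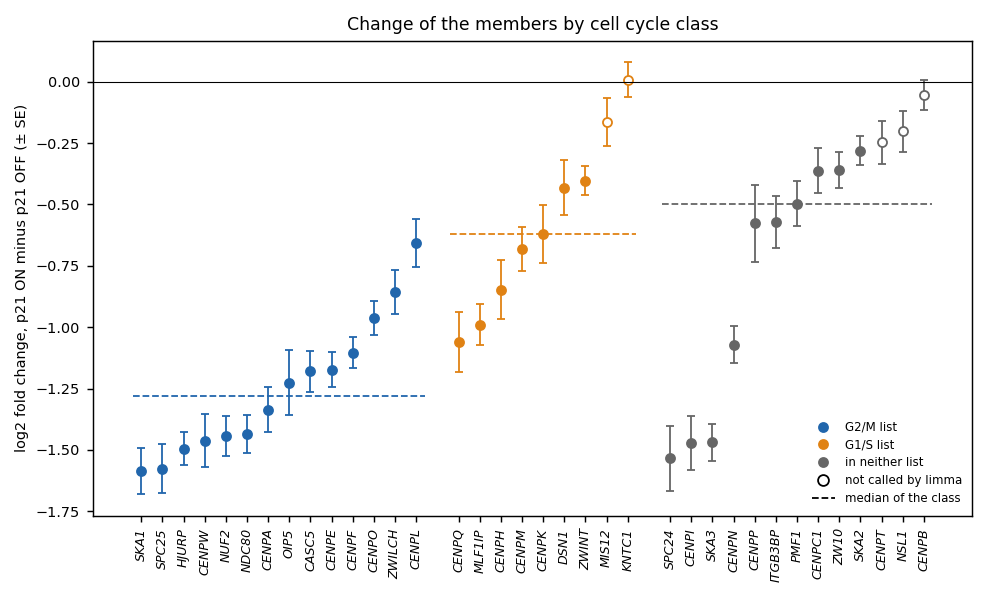
Log2 fold change of each member between p21 ON and p21 OFF libraries (y axis, circles with SE from limma), in the class of the G2/M list (blue), the G1/S list (orange) or neither list (grey). Open circles are members without a call and dashed lines are the class medians. The G2/M median lies at -1.28, the G1/S median at -0.62 and the median of the others at -0.50.

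The other genes of the centromere and kinetochore were described with a list of 30, which holds checkpoint, Mis18, passenger complex, shugoshin and microtubule-tip genes. Of these, 21 were lower with p21 ON, against 12.7% of all genes tested, and 9 were not called. The median log2 fold change of the 30 was -0.94. Of the 12 genes outside the G2/M list, 3 were lower and 9 were not called, with a median of -0.099. By limma none of the 30 was higher at an adjusted p-value under 0.05, where 10.5% of all genes were, or at an unadjusted p under 0.05. For the 30 genes edgeR and DESeq2 called 22 and 21 lower and 0 higher. The largest falls were those of AURKB, the kinase that corrects wrong attachments, from 926 ± 71.8 to 276 ± 23.1 normalized counts (SD, n = 3 each), of CDCA8, the Borealin subunit of the passenger complex, with a log2 fold change of -1.54, and of TTK, the checkpoint kinase MPS1, with one of -1.52. MIS18A, the partner of OIP5 in the Mis18 complex, went from 614 ± 32.3 to 228 ± 27.7 (SD, n = 3 each), which is a log2 fold change of -1.43 (adjusted p = 2.07e-09). It was singled out after its value was seen, as the only 1 of the 12 genes outside the G2/M list in this set to fall by at least 1. The genes of CENP-S and CENP-X, which join CENP-T and CENP-W, stand in the table as APITD1 and STRA13 and had log2 fold changes of 0.023 (adjusted p = 0.918) and -0.13 (adjusted p = 0.216).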

How the data were processed

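RNA sequencing of 6 SaOS-2 libraries was analysed. Per the methods, stranded mRNA was read single-end in one lane, with STAR for mapping to hg19 and HTSeq for gene counts. The authors then normalized by DESeq2 size factors, and what they deposited is this signal, in normalized counts. Tool versions, the annotation and the strand setting are not given in the sources used here. In every library 100% of values were whole multiples of 1 step (tolerance 0.001 reads), which returned the reads.

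Genes with a mean of at least 10 (13255) were tested with limma 3.58.1 (trend, no covariates) on log2(normalized count + 1) in R 4.3.3, with Benjamini-Hochberg adjustment. The pseudocount makes fold changes of weakly expressed genes too small. Alternatives were edgeR 4.0.16 and DESeq2 1.42.0 on recovered reads, other scalings, pseudocounts, filters and thresholds, a length trend, a replicate block and each library left out. On simulated counts for the same comparison, 200 of the 13243 genes tested were changed by 1 on the log2 scale. Of these, limma recovered 97.5%, and it made 9 false calls. Every simulated gene had the same dispersion and no length trend was simulated, so these rates need not hold for the real libraries. Replicates differed by more than sampling noise (chi-square per gene 2.71 to 9.26).

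Positions and canonical transcript lengths follow GENCODE 44 in its GRCh37 (hg19) version, and promoter windows from RefSeq on GRCh38.p14, matched by symbol or older symbol. The members, gene lists and tests were chosen with earlier results of these data known. All members are named, with CDKN1A and up to 3 largest called changes in each direction among the other kinetochore genes, of which none was called higher. MIS18A, APITD1 and STRA13 were added after their values were seen.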

Additional observations from a re-analysis of the deposited data

How the results depend on the processing

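The number of members called lower was 29 to 33 under every alternative but that with a required log2 fold change of 1 or more, which left 16, and 0 were called higher in each. The replicate block gave 32 members lower and added CENPT (adjusted p = 0.0305). Deviations of libraries with the same number correlated at -0.057, -0.024 and -0.048, so no pairing by number was seen. Such a check cannot show that these libraries were unrelated. Over fits that each omit 1 library the median of the members stayed between -0.96 and -0.86, the called lower members between 30 and 32, the other kinetochore genes called lower between 20 and 22, CDKN1A between 5.06 and 5.16, and the pairs of partners without overlap between 7 and 10. The difference between G2/M and G1/S members ranged from -0.85 without p21 ON replicate 3 to -0.52 without p21 ON replicate 2, and was -0.78 with the length trend taken out, an alternative chosen after seeing the data, as were edgeR, DESeq2, TMM scaling, the replicate block and the other pseudocounts and filters for this difference. It could not be computed with the high-stringency lists, since no member is in the G1/S one. KNTC1 turned negative, without a call, under TMM scaling (-0.0015), without p21 OFF replicate 1 (-0.00069), without p21 ON replicate 1 (-0.049) and with the length trend taken out (-0.086), and ran from -0.049 to 0.058 over the fits that omit 1 library. Scaling by library size alone gave 1194 genes lower and 2034 higher over all genes, against 1681 and 1393, and 888 were lower without p21 ON replicate 1 and 1076 without p21 ON replicate 3. The causes were not tested. Depth limits CENPP, OIP5, SPC24, CENPQ and CENPI most, with 36 to 75 reads in their lowest library. CENPC1, CENPN, CENPI, CENPP, MLF1IP and SKA2 have annotated pseudogenes, whose part in the counts was not tested.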

Other observations

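Levels were compared between members per kilobase of canonical transcript, as normalized counts per kb. In p21 OFF libraries SKA2 (1646), ZWINT (1271) and CENPB (767) stood highest, with log2 fold changes of -0.28, -0.40 and -0.055. HJURP (596) and CENPT (504) came next, with log2 fold changes of -1.49 and -0.25. CENPP (8.53), CENPC1 (42.0), CENPI (46.9) and NSL1 (47.2) stood lowest. The annotated transcripts of CENPP and NSL1 have 8293 and 13115 bases, so a shorter form in these cells would raise their level per kb. The 4 genes of the Ndc80 complex were not at the same level, with SPC25 at 362, NUF2 at 357, NDC80 at 341 and SPC24 at 75.5 with p21 OFF, and 121, 131, 126 and 26.0 with p21 ON.

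Transcript length moved with the values of single members. The 8 members with a transcript under 1500 bases had a median log2 fold change of -1.04, and of -0.91 with the length trend taken out of each library. The 8 members with one over 5000 bases had medians of -0.84 and -0.98. CENPW, with 809 bases, went from -1.46 to -1.27 and CENPF, with 10290, from -1.10 to -1.27.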
